A study of Mus musculus with 15 samples.

Results

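The ADAM, ADAMTS, ADAMTS-like, matrix metalloproteinase (MMP) and tissue inhibitor of metalloproteinases (TIMP) genes were followed in endothelial cells (EC) sorted from mouse liver. Every array probe whose accession or name led to a symbol of the form Adam, Adamts, Adamtsl, Mmp or Timp followed by a number was taken as a member. This gave 112 of 55681 probes and 84 of the 21173 genes with a symbol on the array, and 27 of the 84 genes had several probes. Of the 85 family genes in the RefSeq gene table, Mmp27 was not matched to a probe.

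The 5 populations were each measured with 3 Agilent arrays in a single colour, 15 in all. EC-SP and EC-MP were taken from livers at 8 weeks. In this field SP stands for the side population, cells that pump out a DNA dye, and MP for the main population that keeps it. The other 3 populations, CD157+CD200+, CD157-CD200+ and CD157-CD200-, were separated by antibodies against those surface proteins and came from adult liver. No strain, genotype or treatment was given for any group, and the series text speaks of independent samples without saying what was kept apart, so the p-values measure the spread between these samples. EC-SP and EC-MP were read on another scanner and with another version of the scan software than the CD157 and CD200 subsets. Each replicate number of a set shared 1 slide.

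ADAMs are membrane proteins with a disintegrin domain. Many carry a working metalloproteinase that cuts the outer part off other membrane proteins, such as growth factors, adhesion molecules and cytokine receptors, while some bind other cells without cutting. ADAMTS enzymes are secreted and cleave matrix proteoglycans, procollagens or plasma proteins, ADAMTS-like proteins have the same ancillary domains and no protease, and MMPs degrade matrix and basement membrane. TIMPs are their secreted inhibitors. In liver, these genes are known for matrix turnover around the sinusoids and portal vessels, for the release of growth factors in regeneration, and for fibrosis.

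All values below are log2 signal after the log2 75th percentile of the array was subtracted, so 0 is the level of that percentile. Values of different probes are not comparable with each other. Differences are log2 differences with their standard error from limma, and "adjusted p" is limma's p after Benjamini-Hochberg adjustment over all features of a comparison, with 0.05 as the threshold. A member was tested if some group of the fit had its probe well above background on 3 of 3 arrays.

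On these terms 42 of the 84 genes were tested in at least 1 of the 2 fits, 40 in EC-SP against EC-MP, 40 among the subsets and 38 in both. The other 42 were tested in neither, and 21 of them, including Mmp3, Mmp8, Mmp10, Mmp12, Mmp13, Adam8 and Adamts15, were above background on no array. Detection differed by family group: all 4 TIMP genes and 7 of 9 proteinase ADAMs were tested, against 5 of 16 secreted MMPs and 6 of the 22 remaining ADAMs, many of which are known from testis. Probes that are not above background give no level, so nothing is said of those genes beyond that. Counts over tested members are given as description, because a member that was bright in 1 group alone could enter the test only through that group.

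**Figure D1:**
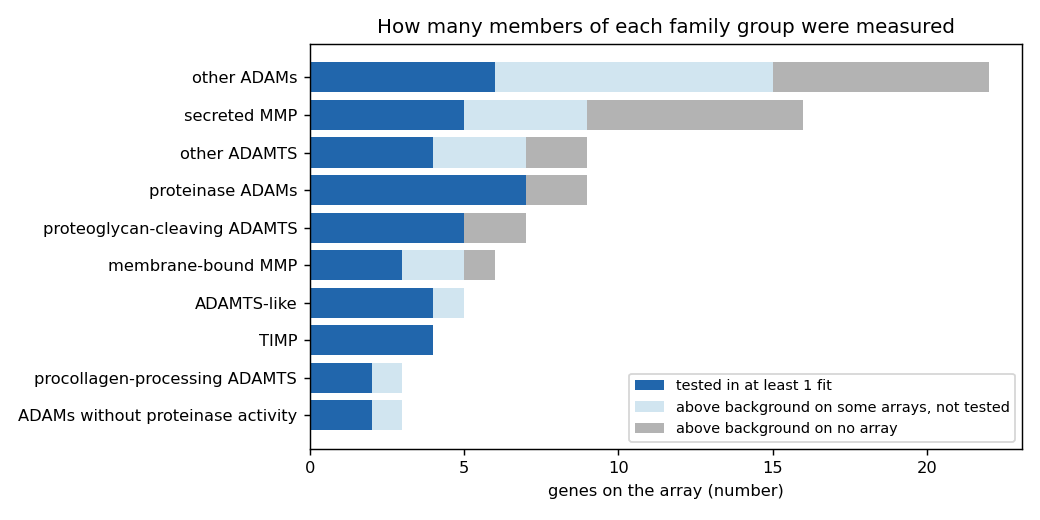
Number of genes on the array in each family group (bar length, horizontal axis), split into genes tested in at least 1 fit, genes above background on some arrays but not tested, and genes above background on no array. All 4 TIMP genes were tested, and 11 of the 16 secreted MMPs were not.

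Many of the unmeasured MMPs sit in 1 gene cluster. Mmp13, Mmp12, Mmp1b, Mmp3, Mmp1a, Mmp10, Mmp8, Mmp27, Mmp20 and Mmp7 neighbour each other on mouse chromosome 9 in the RefSeq gene table, and of them only Mmp7 was tested. Promoters of an unmeasured and a measured gene of the cluster, and of the TIMP and the ADAM with the clearest differences, are printed to show what these starts look like. RefSeq promoters of GRCm38.p6 were available for 53 of the 84 genes (58 promoters of 300 bases, 250 before and 50 after the start). Bases before the start are printed 5′ to 3′ on the gene's strand, from chr9:7272264-7272513 (plus strand) for Mmp13, chr9:7691840-7692089 (plus strand) for Mmp7, chr11:118355412-118355661 (minus strand) for Timp2 and chr1:63445641-63445890 (plus strand) for Adam23. Capitals mark matches on either strand to TGANTCA (the AP-1 motif), TATAAA (the TATA box) and GGGCGG (the GC box).
Mmp13: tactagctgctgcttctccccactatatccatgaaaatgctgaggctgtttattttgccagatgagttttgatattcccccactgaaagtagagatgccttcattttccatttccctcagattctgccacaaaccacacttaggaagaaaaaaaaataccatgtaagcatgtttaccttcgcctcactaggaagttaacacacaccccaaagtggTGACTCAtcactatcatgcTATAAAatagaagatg
Mmp7: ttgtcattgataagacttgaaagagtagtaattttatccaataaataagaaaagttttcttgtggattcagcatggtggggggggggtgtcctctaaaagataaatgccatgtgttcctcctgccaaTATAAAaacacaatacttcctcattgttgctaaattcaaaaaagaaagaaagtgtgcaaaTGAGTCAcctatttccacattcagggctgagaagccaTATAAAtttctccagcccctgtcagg
Timp2: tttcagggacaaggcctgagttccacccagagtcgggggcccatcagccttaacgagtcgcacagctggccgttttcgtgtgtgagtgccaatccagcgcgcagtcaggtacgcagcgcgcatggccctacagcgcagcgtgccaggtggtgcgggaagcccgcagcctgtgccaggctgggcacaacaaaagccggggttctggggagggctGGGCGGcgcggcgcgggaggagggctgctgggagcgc
Adam23: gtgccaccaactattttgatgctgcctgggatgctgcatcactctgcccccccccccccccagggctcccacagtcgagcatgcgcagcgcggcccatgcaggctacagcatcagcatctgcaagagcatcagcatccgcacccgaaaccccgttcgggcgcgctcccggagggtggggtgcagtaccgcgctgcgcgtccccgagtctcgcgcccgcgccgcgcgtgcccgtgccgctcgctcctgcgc
In Mmp13 the AP-1 match began 35 bases and the TATA match 16 bases before the start. Mmp7 had, in the promoter printed, an AP-1 match at 63 bases and TATA matches at 123 and 26 bases before the start. A second RefSeq promoter of Mmp7, at chr9:7692091-7692390, held none of the 3 motifs and 7 CG pairs. Timp2 had a GC box 37 bases before its start and neither of the other motifs, and Adam23 had none of the 3 in this window but 31 CG pairs over the 300 bases, against 1 in Mmp13.

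Over all 32851 promoters in the table, 7.81% held the AP-1 motif, 13.6% the TATA box and 35.7% the GC box. Of the 11 promoters of the 9 cluster genes on the array, 72.7% held the AP-1 motif, 81.8% the TATA box and 0% the GC box. Of the 30 promoters of members tested in at least 1 fit, 6.67% held the AP-1 motif, 10.0% the TATA box and 66.7% the GC box, and the median number of CG pairs was 19.0 against 7.0 over all promoters. These matches are descriptions of letters in a window and show no binding.

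Among the family members, 10 of 40 tested passed the threshold between EC-SP and EC-MP, 7 higher and 3 lower in EC-SP. Over all features tested, 16.6% passed (9.11% higher, 7.44% lower). Among features with a symbol, as all members have, the share was 19.5%. The median difference was -0.06 over the tested members and -0.01 over all features. With the constants of the deposited series table in place of the 75th percentile, the all-feature median went from -0.01 to -0.17, and 39.8% of all calls were higher in place of 55.0%. No member called here changed sign under that table, normexp background correction or quantile normalization.

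Among the antibody-sorted cells, 15 of 40 members passed between CD157+CD200+ and CD157-CD200-, 10 higher and 5 lower, against 15.2% of all features (8.09% higher, 7.11% lower), with a median of 0.31 over the members and 0.01 over all features. Between CD157-CD200+ and CD157-CD200-, 12 of 40 passed, 9 higher and 3 lower, against 11.8% of all features (6.31% higher, 5.54% lower), with medians of 0.18 and 0.02. Between the 2 CD200+ populations, 3 of 40 passed, 2 higher and 1 lower in CD157+CD200+, against 1.05% of all features (0.802% higher, 0.245% lower), with medians of 0.02 and -0.01. These 3 comparisons share arrays. The count between the CD200+ populations rested on single arrays: it was 0 without CD157+CD200+ replicate 1 or 2 or without CD157-CD200+ replicate 1, and 1 without CD157+CD200+ replicate 3 or CD157-CD200+ replicate 2 or 3. With the slide as a block it was 5 of 40, against 3.07% of all features, with Adamts2 (1.61, adjusted p = 0.020) and Timp2 (1.02, adjusted p = 0.025) added. A test for any difference among the 3 subsets (limma's F test) passed for 17 of 40 members, against 13.9% of all features. Among features with a symbol, the share was 18.0% in this test. It was 19.2%, 15.3% and 1.5% in the 3 comparisons above, in the order given.

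The sorted populations carried the genes they were sorted on. Bst1, which encodes CD157, was higher in CD157+CD200+ than in CD157-CD200+ by 4.98 ± 0.25 (SE, limma's adjusted p = 0.00011), and Cd200, above background on no CD157-CD200- array, exceeded that level in CD157+CD200+ by at least 320-fold (means of 4.42 and -4.42, limma's adjusted p = 7.8e-09). Of 10 endothelial genes, all were above background on every array of every group. Markers of most other cell types listed were not evenly spread. The summed linear signal of 15 cholangiocyte genes, in multiples of the 75th percentile, was 25.4 to 30.6 on the EC-SP arrays and 8.20 to 9.19 on the EC-MP arrays, and 10 of 14 tested were higher in EC-SP, while Cftr was above background on no array of any group. This sum was 12.3 to 16.5 in CD157+CD200+, 7.22 to 9.9 in CD157-CD200+ and 8.85 to 12.1 in CD157-CD200-. Between CD157+CD200+ and CD157-CD200-, 1 of 13 tested was higher and 1 lower. The sum of 15 stellate cell, fibroblast and smooth muscle genes was 25.3 to 36.1 in CD157+CD200+, 24.5 to 41.8 in CD157-CD200+, 10.2 to 11.2 in CD157-CD200-, 12.8 to 19.3 in EC-SP and 7.81 to 8.88 in EC-MP, with Pdgfra above background on no array of any group. Not all of that list ran with its sum: Dcn and Lrat were lower in both CD200+ populations than in CD157-CD200-, and Lrat and Reln were lower in EC-SP than in EC-MP. The sum of 5 mesothelial genes was 18.2 to 31.2 in the CD200+ populations, 1.53 to 1.94 in CD157-CD200-, 8.57 to 10.4 in EC-SP and 12.7 to 16.1 in EC-MP, with Msln and Wt1 above background on no array of any group. Only 2 genes of this list were tested, Gpm6a and Krt19. Gpm6a was higher in both CD200+ populations than in CD157-CD200- and lower in EC-SP than in EC-MP. Krt19, which is also on the cholangiocyte list, went the other way in EC-SP, where it was higher, and was not called among the subsets. The sum of 10 hepatocyte genes was 27.1 to 41.9 in CD157-CD200- and 12.6 to 16.9 in the 2 CD200+ populations. It was 10.8 to 12.7 in EC-SP and 8.26 to 9.23 in EC-MP. Of 8 hepatocyte genes tested between these, 3 were higher and 2 lower in EC-SP. The sum of 11 Kupffer cell genes was 40.7 to 54.8 in CD157-CD200- and 27.2 to 37.4 in the CD200+ populations. It was 27.0 to 31.2 in EC-SP and 26.0 to 35.8 in EC-MP. Of 8 Kupffer cell genes tested between these, 0 were higher and 3 lower in EC-SP. Timd4 was above background on no array of any group. The leukocyte and neutrophil list was more even within each sort. The sum of its 11 genes on the array was 605 to 775 in EC-SP and EC-MP and 293 to 382 in the subsets. Of 7 tested in EC-SP against EC-MP, 0 were called. Of 8 tested among the subsets, 1 was higher in CD157+CD200+ than in CD157-CD200-, the only call. The part of cells of these types in the members' differences was not tested, and fewer cells of a type cannot be told apart from less RNA per cell.

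Adam10 and Adam17 encode the main sheddases of cell surfaces. Adam10, which cuts Notch receptors and cadherins, was 4.99, 5.10 and 5.47 in EC-SP and 4.93, 5.31 and 5.30 in EC-MP. It was 5.45, 5.49 and 5.31 in CD157+CD200+, 5.37, 5.39 and 5.34 in CD157-CD200+ and 5.05, 4.92 and 4.97 in CD157-CD200-. The CD157-CD200- arrays lay below the other subsets without overlap, by 0.43 ± 0.15 against CD157+CD200+ (adjusted p = 0.090) and 0.38 ± 0.15 against CD157-CD200+ (adjusted p = 0.16). With the slide as a block these were adjusted p = 0.017 and 0.033. Adam17, which releases tumour necrosis factor and ligands of the epidermal growth factor receptor, had means between -0.41 and -0.06 in the 5 groups. On that probe the groups overlapped in every comparison, and the EC-SP difference was -0.26 ± 0.22 (adjusted p = 0.49). On a second Adam17 probe EC-SP (-0.72, -0.66 and -0.86) lay below EC-MP (-0.24, -0.20 and -0.31) without overlap, by -0.50 ± 0.21 (adjusted p = 0.14), and the subsets overlapped.

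Adam15 and Adam19 moved in opposite directions among the subsets. Adam15, an ADAM with an integrin-binding sequence found on endothelium, was 5.49, 5.34 and 5.04 in CD157+CD200+, 5.09, 5.17 and 5.09 in CD157-CD200+ and 4.08, 3.77 and 3.88 in CD157-CD200-. Both CD200+ populations were higher than CD157-CD200- without overlap, by 1.38 ± 0.18 (adjusted p = 0.00056) and 1.20 ± 0.18 (adjusted p = 0.0016). In EC-SP it was 4.38, 3.91 and 4.36 and in EC-MP 3.46, 3.51 and 4.22, groups that overlapped (0.48 ± 0.28, adjusted p = 0.29).

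Adam19, which sheds neuregulins and is needed for heart valve formation, was -1.22, -0.70 and -0.79 in EC-SP and 0.57, 0.58 and 0.85 in EC-MP. It was lower in EC-SP by 1.57 on the log2 scale (SE 0.23, adjusted p = 0.0024), with no overlap. Among the subsets it was 0.73, 0.55 and 1.10 in CD157+CD200+, 0.76, 0.60 and 1.59 in CD157-CD200+ and 2.41, 1.52 and 2.85 in CD157-CD200-. CD157+CD200+ lay below CD157-CD200- by -1.46 ± 0.37 (adjusted p = 0.025). This call was lost without CD157+CD200+ replicate 1 or 2 or CD157-CD200- replicate 1 or 3 (-1.43 to -1.17, adjusted p = 0.075 to 0.086). CD157-CD200+ overlapped with CD157-CD200- (-1.28 ± 0.37, adjusted p = 0.054), and with the slide as a block that difference had an adjusted p of 0.0039.

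Adam23, one of the ADAMs without protease activity, binds integrins and LGI proteins and is best known from neurons. It showed the largest differences of any member in 3 of the 4 comparisons. Its brighter probe read 3.32, 2.95 and 2.11 in EC-MP and 4.11, 3.88 and 4.30 in CD157-CD200-. It read -3.91, -4.42 and -5.52 in EC-SP and -4.60, -6.42 and -4.38 in CD157+CD200+, not well above background on any of those arrays. CD157-CD200+ was -3.73, -4.20 and -4.35, with 1 of 3 arrays above background, so that 2 populations were high and 3 were at or near background.

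Where 1 group of a pair was not above background on any array, the fold is given as a lower bound, set against the dimmest signal that still counted as above background on those arrays, or the probe's own if that was brighter. Both Adam23 probes showed the same split. The brighter was lower in EC-SP than in EC-MP by at least 100-fold (means of -4.62 and 2.79, adjusted p = 2.9e-05) and lower in CD157+CD200+ than in CD157-CD200- by at least 277-fold (means of -5.13 and 4.10, adjusted p = 1.3e-06). The dimmer, tested with every probe as its own feature, was lower by at least 19.7-fold in EC-SP (limma's adjusted p = 0.00015), 81.7-fold in CD157+CD200+ (1.7e-05) and 85.9-fold in CD157-CD200+ (2.2e-05). Between the 2 CD200+ populations the brighter probe differed by -1.04 ± 0.47 (adjusted p = 0.59), with both near background. Adam11, another ADAM without protease activity, had a mean of 1.38 in both EC-SP and EC-MP and between 0.42 and 0.47 in the subsets, and its groups overlapped in every comparison. Adam22, the remaining gene grouped with them here, was not tested. The ADAMs outside this group and the proteinase ADAMs were not split by protease activity.

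Adam1a, known from sperm as a subunit of fertilin, was near background and was called in opposite directions in the 2 sorts. It was -2.44, -2.11 and -2.31 in EC-SP and -3.37, -4.04 and -3.50 in EC-MP (1.35 ± 0.25, adjusted p = 0.0067), without overlap. CD157+CD200+ read -4.40, -4.49 and -4.17, not well above background on any array, and CD157-CD200- read -3.02, -3.43 and -3.22, at least 1.73-fold higher (adjusted p = 0.0020). CD157-CD200+ read -3.32, -3.21 and -3.45, at least 1.61-fold higher than CD157+CD200+ (adjusted p = 0.028). The call between the CD200+ populations was lost when any 1 of their 6 arrays was left out (adjusted p = 0.053 to 0.13), and both subset calls were lost with normexp background correction (-0.31, adjusted p = 0.093, and -0.20, adjusted p = 0.83). Adam9 and Adam33 passed in none of the 4 comparisons. For Adam9 the largest difference was -0.58 ± 0.28 in EC-SP (adjusted p = 0.21).

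**Figure D2:**
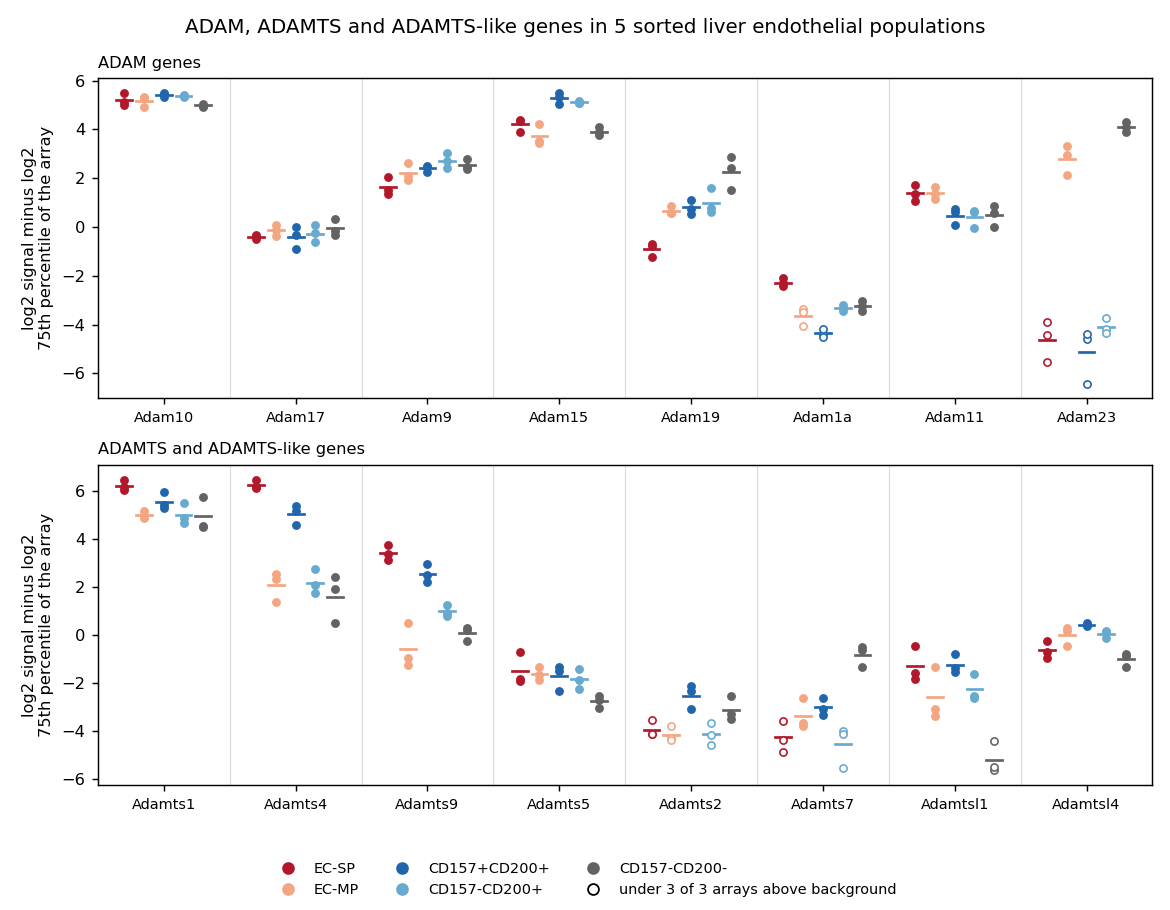
Levels of 8 ADAM genes (upper panel) and 8 ADAMTS and ADAMTS-like genes (lower panel) on each of the 15 arrays, as log2 signal minus the log2 75th percentile of the array (vertical axis). Each point is 1 array, lines are the means of 3 arrays, and open points mark groups with fewer than 3 arrays above background. Adam23 was high in EC-MP and CD157-CD200-, and Adamts4 and Adamts9 were highest in EC-SP and CD157+CD200+.

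Of the ADAMTS enzymes that cleave aggrecan and versican, 5 of 7 were tested. Adamts1, Adamts4 and Adamts9 were higher in EC-SP, and Adamts4 and Adamts9 were also higher in CD157+CD200+ than in either other subset. Adamts4, known as an aggrecanase of cartilage, was 6.12, 6.18 and 6.47 in EC-SP and 2.55, 1.38 and 2.32 in EC-MP. It was 5.18, 4.60 and 5.37 in CD157+CD200+, 2.08, 1.74 and 2.73 in CD157-CD200+ and 1.90, 0.48 and 2.43 in CD157-CD200-. The EC-SP and CD157+CD200+ arrays were all above those they were compared with, by 4.18 ± 0.32 against EC-MP (18.1-fold, adjusted p = 9.0e-05), 3.45 ± 0.47 against CD157-CD200- (10.9-fold, adjusted p = 0.00078) and 2.86 ± 0.47 against CD157-CD200+ (7.28-fold, adjusted p = 0.021). The last of these was lost without any CD157+CD200+ array or without CD157-CD200+ replicate 1 or 2 (2.64 to 3.09, adjusted p = 0.059 to 0.099). The populations lacking CD157 overlapped (0.58 ± 0.47, adjusted p = 0.59).

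Adamts9, a versican-cleaving enzyme known for a role in angiogenesis, fell into steps among the subsets. It was 2.51, 2.96 and 2.21 in CD157+CD200+, 0.90, 1.24 and 0.81 in CD157-CD200+ and 0.29, -0.26 and 0.21 in CD157-CD200-, with no overlap between any 2 subsets. The steps were 1.58 ± 0.25 (adjusted p = 0.015) and 0.91 ± 0.25 (adjusted p = 0.041), and the whole span was 2.48 ± 0.25 (5.58-fold, adjusted p = 9.3e-05). The upper step was lost without CD157+CD200+ replicate 1 or 2 or CD157-CD200+ replicate 1 or 3 (1.38 to 1.60, adjusted p = 0.063 to 0.082). The lower step was lost without CD157+CD200+ replicate 1 or any 1 of the 6 arrays compared (0.74 to 1.01, adjusted p = 0.063 to 0.15). In a fit of all 15 arrays the upper and lower steps had adjusted p = 0.063 and 0.16, and with no filter on dim probes the lower had 0.096. In EC-SP it was 3.11, 3.38 and 3.77 and in EC-MP -1.24, -0.95 and 0.49, a difference of 3.99 ± 0.43 (15.9-fold, adjusted p = 0.00047).

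Adamts1, an inhibitor of angiogenesis that also cleaves proteoglycans, was 6.16, 6.03 and 6.44 in EC-SP and 5.15, 4.88 and 4.90 in EC-MP (1.23 ± 0.22, adjusted p = 0.0059), without overlap. The subsets overlapped, with means of 5.55 ± 0.36 in CD157+CD200+, 5.01 ± 0.43 in CD157-CD200+ and 4.94 ± 0.71 in CD157-CD200- (SD, n = 3). The difference between the first and the last of these was 0.61 ± 0.37 (SE, adjusted p = 0.35), and 0.028 was its adjusted p with the slide as a block. Adamts5, which lies next to Adamts1 on chromosome 16, was lower in CD157-CD200- (-3.04, -2.69 and -2.54) than in CD157+CD200+ (-2.33, -1.49 and -1.34) by 1.04 ± 0.31 without overlap. This difference had an adjusted p of 0.051, and of 0.0053 with the slide as a block. A second Adamts5 probe gave 1.17 ± 0.32 (adjusted p = 0.037), and the mean of both 1.10 (adjusted p = 0.014). CD157-CD200+ was 0.92 ± 0.31 above CD157-CD200- (adjusted p = 0.099, and 0.010 with the block).

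For Adamts8, another enzyme of this group known for blocking angiogenesis, the answer depended on the probe. The probe with the higher mean, which stood for the gene, was -1.18, -0.79 and -0.62 in EC-SP and -1.60, -1.11 and -1.77 in EC-MP (0.63 ± 0.26, adjusted p = 0.14), and its subset means were between -2.52 and -2.29. The other probe read -0.15, -0.47 and 0.48 in EC-SP and was above background on no EC-MP array (-4.56, -4.95 and -6.04). It read -0.74, -0.30 and -0.58 in CD157+CD200+, -4.75, -3.62 and -2.48 in CD157-CD200+ and -5.60, -4.98 and -6.09 in CD157-CD200-, the last with no array above background. With every probe as its own feature, it was higher in EC-SP than in EC-MP by at least 14.3-fold (adjusted p = 0.00014) and in CD157+CD200+ than in CD157-CD200- by at least 10.2-fold (adjusted p = 0.00011). Which transcript each probe reports was not analysed here.

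Procollagens are trimmed by Adamts2, Adamts3 and Adamts14. Adamts2 was tested among the subsets and was -2.35, -3.10 and -2.13 in CD157+CD200+, -3.68, -4.57 and -4.17 in CD157-CD200+ and -3.31, -3.51 and -2.53 in CD157-CD200-. The F test among the subsets passed (adjusted p = 0.030), while no pairwise difference did without the slide as a block. The difference between the CD200+ populations, which did not overlap, was 1.61 ± 0.35 (adjusted p = 0.078, and 0.020 with the block). CD157-CD200+ was below CD157-CD200- by -1.02 (adjusted p = 0.11, and 0.021 with the block), with within-slide differences of -0.37, -1.06 and -1.63. Adamts14 was lower in CD157+CD200+ than in CD157-CD200- by -0.90 ± 0.29 (adjusted p = 0.067, and 0.041 with the slide as a block).

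Adamts7, which cleaves cartilage oligomeric matrix protein and thrombospondins and is known from arteries, was high in CD157-CD200- alone among the subsets. It was -0.52, -0.62 and -1.32 there, -2.62, -3.08 and -3.33 in CD157+CD200+ and -3.99, -5.56 and -4.14 in CD157-CD200+, where no array was above background. No 2 subsets overlapped. It was lower in CD157+CD200+ than in CD157-CD200- by -2.19 ± 0.41 (4.56-fold, adjusted p = 0.0055) and lower in CD157-CD200+ by at least 9.29-fold (adjusted p = 0.00025). EC-SP (-4.36, -4.87 and -3.59) overlapped with EC-MP (-3.65, -2.62 and -3.81), with a difference of -0.91 ± 0.40 (adjusted p = 0.17). Adamts13, the protease of von Willebrand factor, passed in no comparison. Its means ran from -3.10 ± 0.29 in EC-SP to -4.57 ± 1.28 in CD157-CD200- (SD, n = 3), the latter with 1 of 3 arrays above background.

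Of the 3 ADAMTS-like genes tested among the subsets, Adamtsl1 and Adamtsl4 were higher in both CD200+ populations than in CD157-CD200-. Adamtsl5 overlapped in all 3 comparisons, with means of 1.16, 1.70 and 1.55 in CD157+CD200+, CD157-CD200+ and CD157-CD200-. Adamtsl1, which encodes a secreted matrix protein called punctin, was -1.55, -1.37 and -0.78 in CD157+CD200+ and -2.62, -2.55 and -1.64 in CD157-CD200+. The probe with the higher mean, which gave these values, was above background on no CD157-CD200- array (-5.64, -4.43 and -5.52), at least 6.35-fold lower than in CD157+CD200+ (adjusted p = 8.4e-05) and at least 3.09-fold lower than in CD157-CD200+ (adjusted p = 0.00076). A second Adamtsl1 probe, above background on 1 CD157-CD200- array, gave smaller differences of 1.53 ± 0.37 against CD157+CD200+ (adjusted p = 0.022) and 0.89 ± 0.37 against CD157-CD200+, where the groups overlapped (adjusted p = 0.20). On the first probe EC-SP was -1.85, -1.59 and -0.44 and EC-MP -3.36, -3.09 and -1.32, which overlapped (1.29 ± 0.55, adjusted p = 0.15). In both, replicate 3 was the highest array. The slide as a block gave adjusted p = 0.012, and leaving out EC-MP replicate 3 gave 1.93 (adjusted p = 0.018). The second probe gave 0.35 ± 0.35 (adjusted p = 0.57).

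Adamtsl4, a fibrillin-binding protein of the eye's zonule, was 0.43, 0.39 and 0.48 in CD157+CD200+, 0.12, -0.12 and 0.18 in CD157-CD200+ and -1.32, -0.89 and -0.80 in CD157-CD200-. Both CD200+ populations were higher without overlap, by 1.44 ± 0.19 (adjusted p = 0.00059) and 1.06 ± 0.19 (adjusted p = 0.0046). EC-SP (-0.71, -0.95 and -0.26) overlapped with EC-MP (-0.44, 0.17 and 0.29), with a difference of -0.65 ± 0.28 (adjusted p = 0.16).

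Mmp2, the gelatinase that degrades type IV collagen and is activated at the cell surface, was higher in EC-SP than in EC-MP and stood in steps among the subsets. It was -0.94, -1.97 and -0.04 in EC-SP, and -4.49, -5.65 and -6.10 in EC-MP with no array above background. EC-SP was higher by at least 7.5-fold (adjusted p = 0.00079). Among the subsets it was -0.82, -0.29 and -0.72 in CD157+CD200+, -2.16, -3.16 and -2.95 in CD157-CD200+ and -5.64, -4.68 and -3.53 in CD157-CD200-, with no overlap between any 2. Only 1 of 3 CD157-CD200- arrays was above background. The whole span was 4.01 ± 0.48 (16.1-fold, adjusted p = 0.00032), and its size rests on that group near background. The lower step was 1.86 ± 0.48 (adjusted p = 0.033), and it was lost without any CD157-CD200+ array or CD157-CD200- replicate 1 or 2 (1.35 to 2.06, adjusted p = 0.050 to 0.12) and with normexp background correction (0.31, adjusted p = 0.19). The upper step of 2.15 ± 0.48 did not pass (adjusted p = 0.087). With normexp it was 0.97 (adjusted p = 0.0028), and without CD157-CD200- replicate 1 or 3 it had adjusted p = 0.034 and 0.022.

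Mmp14, the membrane-bound enzyme that activates Mmp2 together with Timp2, ran the other way. It was 0.26, 0.15 and 0.85 in CD157-CD200-, -1.33, -1.23 and -1.14 in CD157+CD200+ and -1.70, -1.23 and -1.09 in CD157-CD200+. Both CD200+ populations were lower than CD157-CD200- without overlap, by -1.66 ± 0.24 (adjusted p = 0.0011) and -1.76 ± 0.24 (adjusted p = 0.00089). EC-SP (-1.01, -0.52 and -1.34) and EC-MP (0.17, -0.07 and -0.79) overlapped (-0.72 ± 0.32, adjusted p = 0.17). Mmp17, a glycosylphosphatidylinositol-anchored MMP, was 0.96, 1.09 and 1.16 in CD157-CD200+ against -0.51, 0.21 and -0.23 in CD157-CD200- (1.25 ± 0.24, adjusted p = 0.0066). CD157+CD200+ lay between at 0.08, 0.66 and 0.11 and did not differ from either at the threshold. Mmp24 passed in none of the comparisons.

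Mmp28 and Mmp11 were lower in CD157-CD200- than in both CD200+ populations. Mmp28, called epilysin, was 0.36, 0.30 and 0.23 in CD157+CD200+, 0.53, 0.48 and 0.08 in CD157-CD200+ and -1.08, -1.24 and -0.94 in CD157-CD200- (1.38 ± 0.18, adjusted p = 0.00060, and 1.45 ± 0.18, adjusted p = 0.00056). Its second probe was above background on all arrays of the CD200+ populations and on none of CD157-CD200- (-5.55, -6.08 and -5.10), at least 6.20-fold lower than in CD157+CD200+ (adjusted p = 1.6e-05). Mmp11, called stromelysin 3, was -2.69, -2.68 and -1.58 in CD157+CD200+, -2.04, -2.72 and -2.05 in CD157-CD200+ and -4.16, -4.24 and -3.71 in CD157-CD200-, where 1 of 3 arrays was above background. It was 1.72 ± 0.33 (adjusted p = 0.0064) and 1.77 ± 0.33 (adjusted p = 0.0066) higher, and both calls were lost with normexp background correction (0.39, adjusted p = 0.086, and 0.38, adjusted p = 0.11).

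Mmp23 was the 1 MMP lower in EC-SP. It was -3.19, -3.41 and -3.32 there and -2.59, -2.30 and -2.07 in EC-MP (-0.99 ± 0.23, adjusted p = 0.018), without overlap. The call was lost without EC-MP replicate 2 or 3 or EC-SP replicate 2 (-0.98 to -0.86, adjusted p = 0.056 to 0.061), and with normexp the difference was -0.30 (adjusted p = 0.21). In the subsets its groups overlapped.

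Mmp7, matrilysin, is made by epithelial cells and is known from bile ducts. It was -1.10, -3.26 and -2.25 in EC-SP and -3.69, -4.57 and -2.28 in EC-MP, with 2 of the 3 EC-MP arrays above background. The groups overlapped (1.31 ± 0.64, adjusted p = 0.21). CD157+CD200+ read -2.09, -6.58 and -2.35, so that replicate 2 lay far below the other two and was the array not above background. CD157-CD200+ was -3.41, -3.05 and -3.32 and CD157-CD200- -3.06, -2.58 and -3.84, and no subset comparison passed (adjusted p = 0.84 or higher). The within-slide differences between CD157+CD200+ and CD157-CD200- were 0.97, -4.00 and 1.49. Mmp9, the other gelatinase, was above background on 1 array of 15, EC-MP replicate 3 at -3.42.

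**Figure D3:**
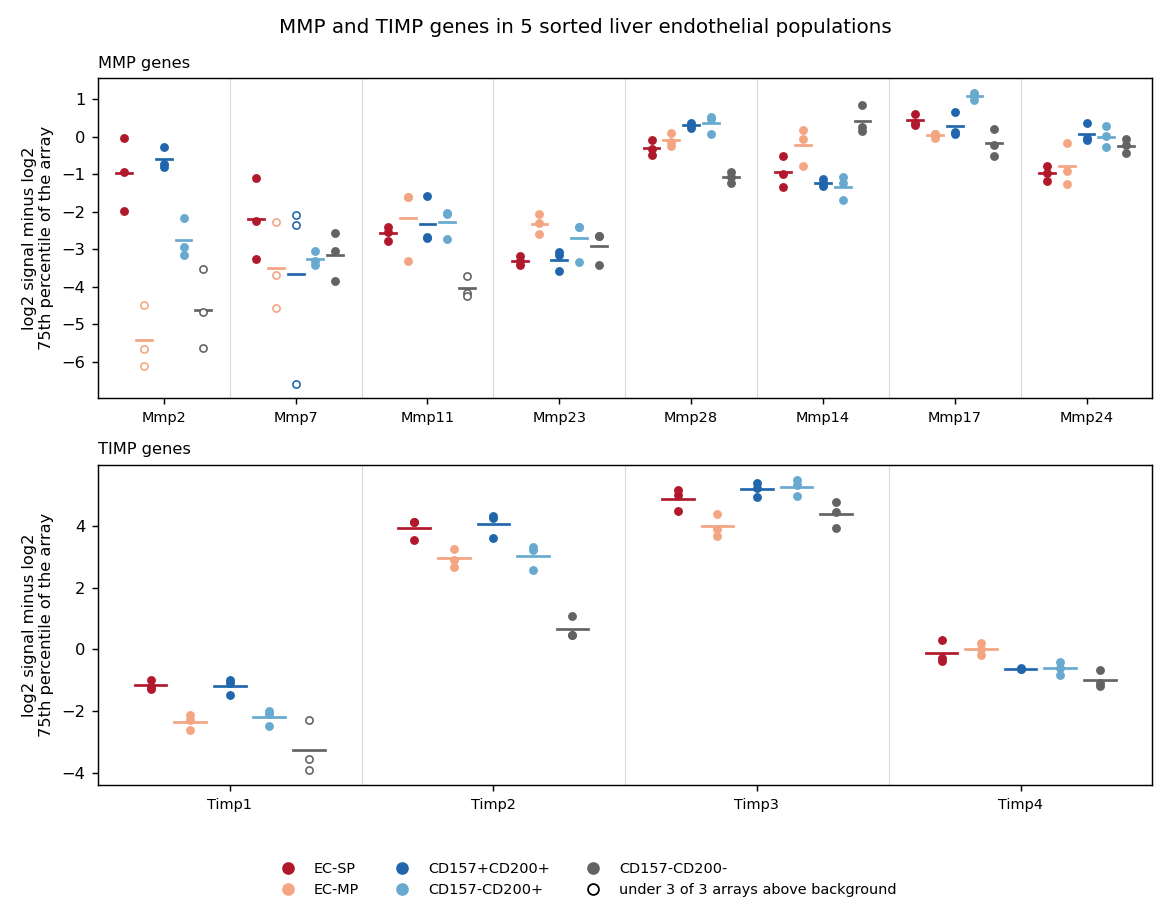
Levels of 8 MMP genes (upper panel) and the 4 TIMP genes (lower panel) on each of the 15 arrays, as log2 signal minus the log2 75th percentile of the array (vertical axis). Points are single arrays, lines are means of 3, and open points mark groups with fewer than 3 arrays above background. Timp2 was 0.45 to 1.08 in CD157-CD200- and 2.56 to 4.31 in all other groups.

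Timp1 and Timp2 were higher in EC-SP and in CD157+CD200+. Timp2, which inhibits MMPs and also takes part in Mmp2 activation, was 4.31, 4.25 and 3.61 in CD157+CD200+, 3.32, 3.21 and 2.56 in CD157-CD200+ and 1.08, 0.45 and 0.46 in CD157-CD200-. No 2 subsets overlapped. CD157-CD200- was lower than CD157+CD200+ by 3.39 ± 0.29 (10.5-fold, adjusted p = 3.6e-05) and than CD157-CD200+ by 2.37 ± 0.29 (5.17-fold, adjusted p = 0.00049). Its second probe gave 3.46 (adjusted p = 1.4e-05) and 2.34 (adjusted p = 0.00023). EC-SP was 4.12, 3.54 and 4.11 and EC-MP 2.89, 2.68 and 3.26, a smaller difference of 0.98 ± 0.26 (adjusted p = 0.034). That call was lost without EC-MP replicate 1 or 2 or EC-SP replicate 1 or 3 (0.85 to 0.95, adjusted p = 0.095 to 0.11), with quantile normalization (0.82, adjusted p = 0.069) and with the deposited series table (0.82, adjusted p = 0.063). The second probe gave 1.35 (adjusted p = 0.0063).

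Timp1, which also acts as a growth factor, was -1.22, -1.28 and -1.01 in EC-SP and -2.60, -2.14 and -2.29 in EC-MP (1.17 ± 0.22, adjusted p = 0.0081), without overlap. In CD157+CD200+ it was -1.10, -0.98 and -1.47, in CD157-CD200+ -2.10, -2.01 and -2.48 and in CD157-CD200- -3.54, -3.92 and -2.28, with 1 of 3 arrays of the last above background. CD157+CD200+ was 2.07 ± 0.38 above CD157-CD200- (4.19-fold, adjusted p = 0.0045), and CD157-CD200+ overlapped with it (1.05 ± 0.38, adjusted p = 0.12). Without CD157-CD200- replicate 3 the latter difference was 1.53 (adjusted p = 0.0041).

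Timp3, the inhibitor that binds to the matrix and also blocks Adam17 and ADAMTS enzymes, was 5.01, 4.48 and 5.15 in EC-SP and 3.66, 4.38 and 3.91 in EC-MP. It was 5.23, 5.39 and 4.93 in CD157+CD200+, 5.33, 5.49 and 4.95 in CD157-CD200+ and 4.46, 4.77 and 3.94 in CD157-CD200-. EC-SP did not overlap with EC-MP, nor either CD200+ population with CD157-CD200-, yet no difference passed: 0.89 ± 0.28 (adjusted p = 0.060), 0.79 ± 0.25 (adjusted p = 0.067) and 0.87 ± 0.25 (adjusted p = 0.057). With the slide as a block the last pair had adjusted p = 0.0023 and 0.0020, and with normexp background correction all 3 passed (adjusted p = 0.027, 0.029 and 0.023). Timp4 had means between -0.98 ± 0.27 in CD157-CD200- and 0.01 ± 0.20 in EC-MP (SD, n = 3), and passed in no comparison.

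The 2 sorts were set against each other for the 38 members tested in both. Higher in EC-SP than in EC-MP and in CD157+CD200+ than in CD157-CD200- were 5 members, Adamts4, Adamts9, Mmp2, Timp1 and Timp2. Lower in both were 2, Adam19 and Adam23, and Adam1a was called in opposite directions. These comparisons share no arrays. A test of the difference between the differences, in a fit of all 15 arrays, passed for 6 members, against 5.82% of all features. Among features with a symbol, the share was 7.4%. Each sort had its own scanner and software version. A shift that is equal in both groups of a sort cancels in this test, and other effects of these cannot be told apart from the sort. With the series table's constants, the higher share of all calls in this test moved from 42.8% to 29.7% and the median of all features from 0.01 to -0.14.

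Of these 6, Adam1a (2.48 ± 0.29, adjusted p = 8.0e-05) was called in both sorts with opposite signs, 1.35 and -1.13. For the other 5 the value is negative, the difference in the antibody sort being the more positive one: Timp2 (-2.41 ± 0.40, adjusted p = 0.0018), Adamtsl4 (-2.09 ± 0.33, adjusted p = 0.0013), Mmp28 (-1.58 ± 0.27, adjusted p = 0.0022), Adamtsl1 (-2.67 ± 0.73, adjusted p = 0.043) and Mmp11 (-2.12 ± 0.58, adjusted p = 0.045). Adamtsl4 (-0.65 and 1.44), Mmp28 (-0.2 and 1.38) and Mmp11 (-0.4 and 1.72) also had opposite signs in the 2 sorts. Their differences between EC-SP and EC-MP were not called. With normexp background correction Adamtsl1 moved to -0.42 (adjusted p = 0.63) and Mmp11 to -0.58 (adjusted p = 0.20). Both also lost their calls with no filter on dim probes (adjusted p = 0.11), with quantile normalization (adjusted p = 0.052 and 0.086) and without most single arrays, 10 and 13 of the 15. With the slide as a block 10 members passed, against 15.4% of all features, adding Adam23 (1.82, adjusted p = 0.039), Adamts9 (1.51, adjusted p = 0.028), Mmp14 (0.93, adjusted p = 0.040) and Adam15 (-0.89, adjusted p = 0.031). The sizes for Adam23, Adamtsl1, Adam1a, Mmp11 and Mmp2 rest on groups with 0 or 1 of 3 arrays above background. They are not measured on both sides. Adamts4 (0.73 ± 0.61, adjusted p = 0.67), Mmp2 (0.42 ± 0.78, adjusted p = 0.92), Timp3 (0.10 ± 0.38, adjusted p = 0.97) and Adam19 (-0.10 ± 0.46, adjusted p = 0.98) gave no call.

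**Figure D4:**
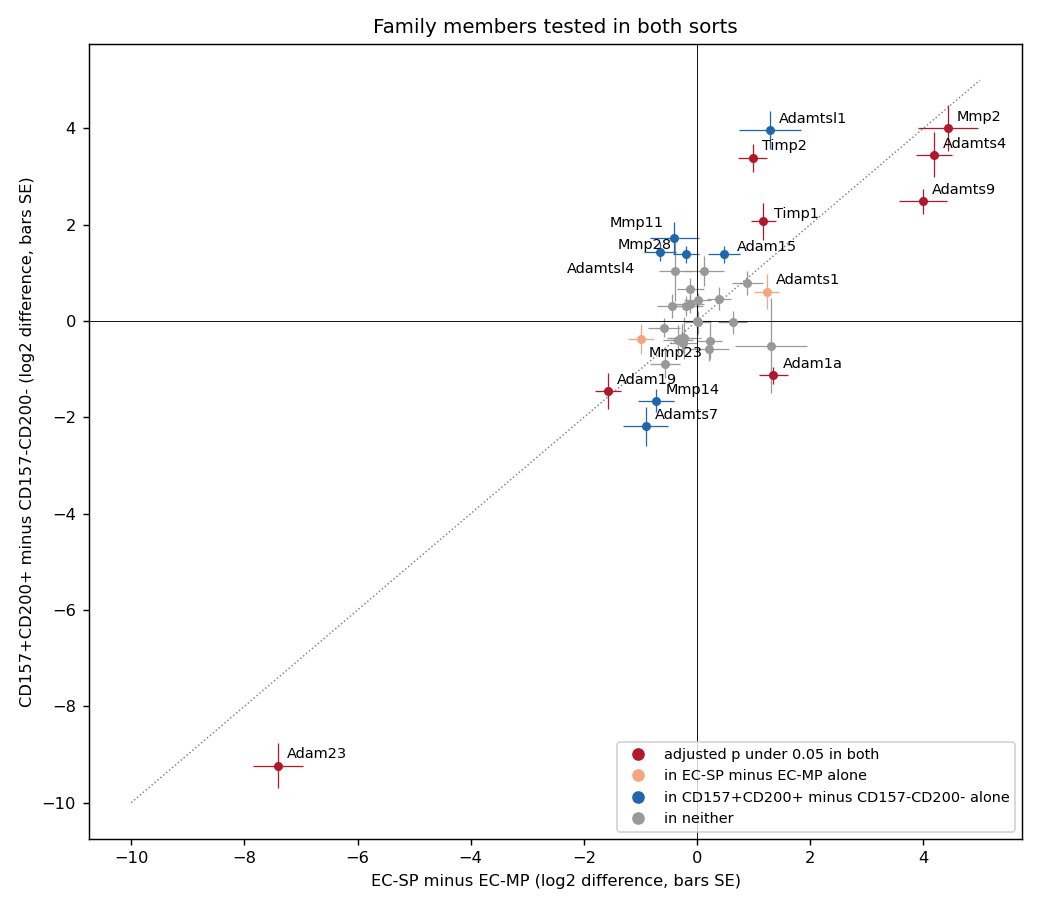
Log2 difference of EC-SP minus EC-MP (horizontal axis) against CD157+CD200+ minus CD157-CD200- (vertical axis) for the 38 members tested in both fits. Bars are standard errors, the dotted line marks equal differences, and colour marks the comparisons in which a member had an adjusted p under 0.05. Adam23 stands alone at -7.41 and -9.23, and Adam1a was called in opposite directions.

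Several members had probes that disagreed. Adam12, a proteinase ADAM of muscle and stromal cells, was tested on a probe with means of -1.92 in CD157+CD200+, -1.87 in CD157-CD200+ and -1.46 in CD157-CD200- (-0.46 ± 0.21 between the first and the last, adjusted p = 0.20, and 0.036 with the slide as a block). Its other 2 probes were above background on all 3 CD157-CD200- arrays and on none of the CD200+ populations. The dimmer pair read -3.12, -3.13 and -2.15 and -3.18, -3.15 and -2.38 in CD157-CD200-, at least 2.20-fold (adjusted p = 0.038) and at least 2.17-fold (adjusted p = 2.3e-05) above CD157+CD200+. Averaging all probes of a gene gave Adam12 a difference of -1.89 (adjusted p = 0.00022), and Adamts8 differences of 2.88 in EC-SP (adjusted p = 0.00039) and 2.49 in CD157+CD200+ against CD157-CD200- (adjusted p = 0.00054).

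**Figure D5:**
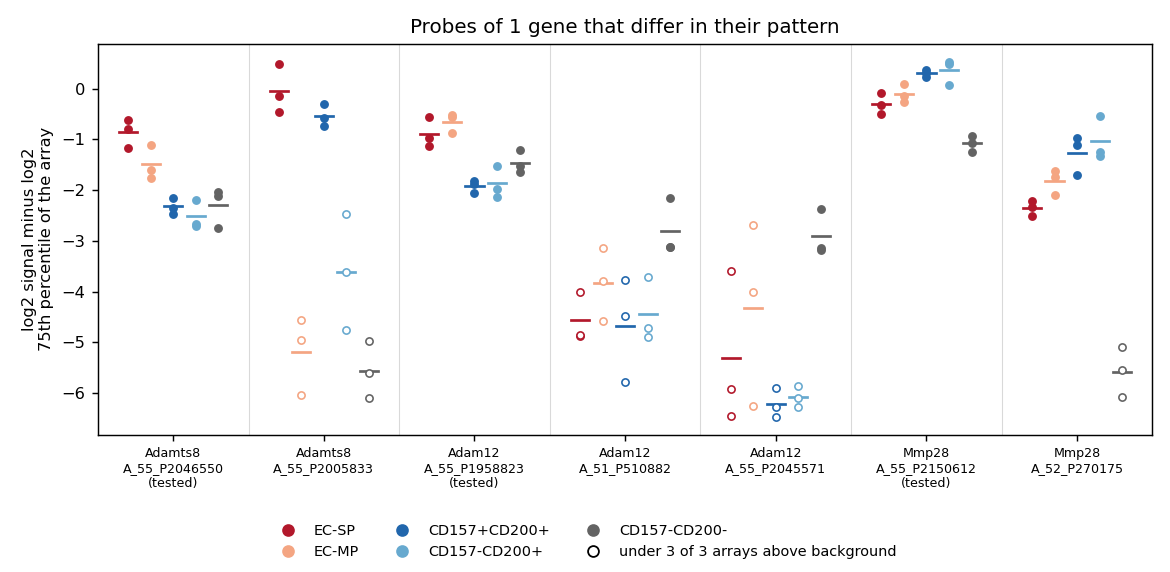
Each probe of Adamts8, Adam12 and Mmp28 on the 15 arrays, as log2 signal minus the log2 75th percentile of the array (vertical axis). The probe that stood for the gene is marked as tested, points are single arrays, lines are means of 3, and open points mark groups with fewer than 3 arrays above background. The second Adamts8 probe was -0.47 to 0.48 in EC-SP and not above background in EC-MP.

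Genes that control these enzymes were followed as a list of 22, with proteases that activate them, escorts of Adam10 and Adam17 and MMP inhibitors outside the TIMP family. In EC-SP 9 of 20 tested were higher and 2 lower, and in CD157+CD200+ against CD157-CD200- 7 of 21 were higher and 4 lower. Between the CD200+ populations 2 of 21 were higher and 1 lower in CD157+CD200+, and in CD157-CD200+ against CD157-CD200- 5 of 21 were higher and 4 lower. The shares of all features called in these comparisons were 16.6%, 15.2%, 1.05% and 11.8%. Among features with a symbol, as all listed genes have, they were 19.5%, 19.2%, 1.5% and 15.3%. This list and the substrate lists are to be read against these shares. The regulators' median differences in that order were 0.34, 0.37, 0.15 and -0.04. Plat, the tissue plasminogen activator, was higher in EC-SP than in EC-MP by 4.70 ± 0.21 (adjusted p = 1.7e-05), and its subsets stood in steps of 1.92 ± 0.27 (adjusted p = 0.011) and 2.92 ± 0.27 (adjusted p = 8.6e-05). Plaur, the urokinase receptor, was higher in EC-SP by 3.40 ± 0.22 (adjusted p = 4.8e-05). Among the subsets Plaur was called higher in CD157+CD200+ than in either other subset, and lower in CD157-CD200+ than in CD157-CD200-. Plau, urokinase itself, was lower in CD157+CD200+ than in CD157-CD200- by -1.58 ± 0.17 (adjusted p = 0.00017). It was also called lower in EC-SP than in EC-MP and in CD157+CD200+ than in CD157-CD200+. Tspan5, a tetraspanin that escorts Adam10, was higher in CD157+CD200+ than in CD157-CD200- by 3.22 ± 0.25 (adjusted p = 1.8e-05). The escorts did not all run this way: Tspan15 and Frmd8 of the same list were lower in both CD200+ populations than in CD157-CD200-. Tspan33, another escort, was higher in EC-SP by at least 4.86-fold (adjusted p = 5.7e-05), and Pcsk5, a proprotein convertase, was higher in CD157-CD200+ than in CD157-CD200- by at least 5.81-fold (adjusted p = 2.5e-05).

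Known substrates were listed in 2 groups. Of 17 membrane proteins shed by ADAMs, 14 were tested, and 6 were higher and 0 lower in EC-SP. In CD157+CD200+ against CD157-CD200- 4 were higher and 2 lower, between the CD200+ populations 2 higher and 0 lower, and in CD157-CD200+ against CD157-CD200- 4 higher and 2 lower. Their medians in that order were 0.48, 0.23, 0.18 and -0.08. Tnfrsf1b, a tumour necrosis factor receptor, differed by 3.83 ± 0.26 in EC-SP (adjusted p = 5.6e-05) and by 5.79 ± 0.39 in CD157+CD200+ (adjusted p = 7.8e-06). Cx3cl1, a membrane-bound chemokine, differed by 3.45 ± 0.32 in CD157+CD200+ (adjusted p = 5.6e-05), and Kdr, a receptor of vascular endothelial growth factor, was lower in CD157-CD200+ than in CD157-CD200- (-1.75 ± 0.20, adjusted p = 0.00027).

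Of 20 matrix and plasma substrates, 3 of 19 tested were higher and 0 lower in EC-SP, 15.8% against 16.6% of all features. Between CD157+CD200+ and CD157-CD200-, 7 of 18 were higher and 4 lower, and between CD157-CD200+ and CD157-CD200- 6 of 18 were higher and 5 lower. Between the CD200+ populations 1 was higher and 1 lower. The medians were 0.36 in EC-SP and 0.23, 0.28 and 0.12 in these 3 subset comparisons. Vwf, von Willebrand factor and the substrate of Adamts13, was 7.86 ± 0.27 higher in CD157+CD200+ than in CD157-CD200- (adjusted p = 1.9e-07) and Eln, elastin, 7.47 ± 0.38 (adjusted p = 1.4e-06). Vcan, versican, the substrate of Adamts4 and Adamts9, was lower in CD157+CD200+ than in CD157-CD200+ (-1.68 ± 0.25, adjusted p = 0.013). It was also called higher in CD157-CD200+ than in CD157-CD200-, and was not called between CD157+CD200+ and CD157-CD200-. Thbs1, thrombospondin 1, was higher in CD157+CD200+ than in CD157-CD200+ by 4.36 ± 0.38 (adjusted p = 0.0010). Col4a1, Col4a2 and Nid1, parts of the basement membrane, were among the 4 lower in CD157+CD200+ than in CD157-CD200-.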

How the data were processed

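Each array gave the intensity of 59305 spots, which the authors deposited as Agilent Feature Extraction scanner output, background-subtracted per the file headers. The signal used was log2 of the processed intensity minus the log2 75th percentile of the array; deposited control spots and outlier spots (per the file headers) were left out. Amplified cDNA was labelled with Cy3, per the labels' protocols. The deposited series table was that intensity times a constant for each array, and served as an alternative. Per array, 57.3% to 69.4% of probes were well above background, none were saturated, and the number of arrays limits the precision.

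The probe with the highest mean stood for a gene with several. Features that some group showed well above background on 3 of 3 arrays were tested with limma 3.58.1 (R 4.3.3), EC-SP and EC-MP in 1 fit (23971 features), the subsets in another (23701), two-sided, without a block. Tables were made with python 3.11.15, pandas 2.3.3 and numpy 2.4.6. Members and lists were chosen with earlier results of these data known. Outside the families, each list could give up to 3 called genes per comparison, by smallest adjusted p, and the sort and endothelial genes. Some list genes called the other way are named besides.

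Replicates of 1 number shared a slide and a scan, per the file headers. The deviations of same-numbered arrays from their group means correlated at 0.273 to 0.330 between EC-SP and EC-MP (3 pairs) and 0.269 to 0.628 among the subsets (9 pairs). For different numbers they correlated at -0.196 to -0.076 (6 pairs) and -0.489 to 0.034 (18 pairs). Deviations from a group mean cancel within the group, so positive values for same numbers make the others negative on average. The pairing of arrays by number thus rests on the same-numbered values and the shared slides. Alternatives were normexp background correction (offset 50, on median spot signals in place of the mean signals planned), quantile normalization, no filter or a strict filter on dim probes, the mean of all probes, all 15 arrays in 1 fit, the slide as a block, the series table, a trended robust spread, and leaving out each array. A split of ADAMs by a protein motif was planned and replaced by textbook groups, since protein sequences were not used here.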

Additional observations from a re-analysis of the deposited data

How the results depend on the processing

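Between the CD200+ populations the 3 calls became 1 with no filter on dim probes and 5 with the slide as a block, the replicate pairing. With the strict filter, which kept probes well above background across a whole fit, the calls between CD157+CD200+ and CD157-CD200- fell from 15 to 9 (27 members tested), those of the F test from 17 to 9 and those of the difference between the 2 sorts from 6 to 3 (26 tested); fewer members were tested under that filter. The difference between the sorts had 10 calls with the block. Leaving out 1 array at a time gave 8 to 11 calls for EC-SP against EC-MP, 14 to 16 for CD157+CD200+ against CD157-CD200-, 0 to 4 between the CD200+ populations, 10 to 12 for CD157-CD200+ against CD157-CD200-, 14 to 18 for the F test and 4 to 6 for the difference between the sorts. All other counts were within 1.5 times of those reported. The block gave 11, 21 and 18 calls for EC-SP against EC-MP and for the CD200+ populations against CD157-CD200-, and 21 for the F test, against 21.9%, 29.3%, 22.3% and 26.8% of all features. For the members named with their blocked values in the text and for Adamts10 in CD157-CD200+ (0.65, adjusted p = 0.041), it added calls. With no filter on dim probes, calls were also lost for Adam19 in CD157+CD200+ against CD157-CD200- (adjusted p = 0.060), Adam1a and Adamts4 between the CD200+ populations (0.084 and 0.064), Mmp2 in CD157-CD200+ against CD157-CD200- (0.079), and Mmp23 and Timp2 in EC-SP (0.061 and 0.10). Adam1a between the CD200+ populations was also lost with quantile normalization (0.074) and the trended spread (0.26), and Mmp23 with the latter (0.062). Adamts8 turned from -0.03 to 2.49 in CD157+CD200+ against CD157-CD200- with the mean of all probes, since its 2 probes disagree. For the rest the cause was not tested. Genes near background, such as Adam1a, Mmp11 and Mmp23, are limited by signal over background.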
